A study of Mus musculus with 24 samples.

Results

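Neuropeptides of the hippocampus are made as precursor proteins and granins are packed beside them in dense-core vesicles. The 10 genes described here are 8 precursor genes (Trh, Gal, Npy, Penk, Pdyn, Tac1, Cck and Nts) and 2 granin genes (Scg2 and Chgb). They were chosen by name, with earlier results of these data known, out of 53379 genes in the count table. All 10 were among the 37598 genes tested. mRNAseq measured them in nuclei of the right hippocampus 24 hours post injection. Kainic acid (KA) was injected into the deep cortex beside the hippocampus, which sets off a status epilepticus, and sham mice (SH) received saline in the same way. All animals were male C57/BL6N mice, acquired at 8 weeks of age and acclimatised for 4 weeks. Both KA and SH mice received medetomidine and ketamine, then atipamezole, and buprenorphine at 4 and 12 hours, and KA mice without convulsive seizures had been left out by the study.

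Hippocampi of 8 mice per treatment were combined into 3 pools (4 mice in replicate 1, and 2 each in replicates 2 and 3). The neuronal protein NeuN was used to sort the nuclei of every pool into NeuN+ nuclei, called neurons here, and NeuN- nuclei, called glia. This gave 4 groups of 3 libraries: SH neurons, KA neurons, SH glia and KA glia. NeuN- is a gate and not a cell type: it also takes nuclei of vessels and neurons whose stain was too weak. Total counts per library ranged from 7769400 to 40364768. SH glia replicate 1 and KA glia replicate 2 were amplified from 0.05 ng RNA with 15 PCR cycles, the other libraries from 1 ng with 10 cycles.

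A neuropeptide gene is translated into a prohormone that is cut by convertases such as those encoded by Pcsk1 and Pcsk2, trimmed by the carboxypeptidase Cpe and amidated by the enzyme encoded by Pam. The peptide is stored in dense-core vesicles, whose cargo includes granins, and is released during sustained firing to act on G protein-coupled receptors at a distance. In the hippocampus Npy and Cck are classically genes of interneurons, Cck also of pyramidal cells, while Penk and Pdyn are made by granule cells of the dentate gyrus. Several of these genes are known to respond to neuronal activity. A cAMP response element (CRE), with the letters TGACGTCA, is a well known way in which activity acts on a promoter.

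The start regions of Scg2, Chgb, Trh and Cck are shown because they bring together the 2 granins and the precursors with the largest positive and negative differences in neurons. Sequences are from RefSeq's GRCm38.p6, whose chromosomes match the mm10 build of the count table. They read 5′ to 3′ along the gene's strand, with the letters of each searched motif in capitals. For Scg2 and Chgb 30 bases round the CRE are given, which GENCODE M21 places in an exon outside the coding part (minus strand, chr1:79440076-79440105, and plus strand, chr2:132781559-132781588). For Trh and Cck the 150 bases before the RefSeq start are given, upstream of every GENCODE transcript (minus strand, chr6:92244651-92244800, and minus strand, chr9:121495695-121495844).
Scg2: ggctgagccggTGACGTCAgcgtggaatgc
Chgb: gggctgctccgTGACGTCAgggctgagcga
Trh: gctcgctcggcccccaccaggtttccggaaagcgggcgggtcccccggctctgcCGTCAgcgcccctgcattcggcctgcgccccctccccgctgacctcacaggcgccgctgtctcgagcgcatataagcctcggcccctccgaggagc
Cck: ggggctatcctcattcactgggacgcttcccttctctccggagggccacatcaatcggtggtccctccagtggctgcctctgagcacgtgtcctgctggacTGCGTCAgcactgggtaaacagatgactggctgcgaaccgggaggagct

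RefSeq windows of 300 bases, from 250 before to 50 after a start, were found for 9 of the 10 members, with none for Penk. The full CRE stood in 2 of these 9, Scg2 at 68 and Chgb at 72 bases before the start, and in 1.79% of all 32851 windows. Its 5-letter core (TGACG or, on the other strand, CGTCA), which the full element contains, stood in 7 of 9 members and in 20.8% of windows. TGCGTCA or its complement TGACGCA, which overlaps the core, stood in Cck and Tac1 and in 2.12% of windows. The AP-1 letters TGAGTCA or TGACTCA stood in Nts and in 5.2% of windows. A match is a run of letters and no measurement of binding.

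Expression is given as CPM, the reads of a gene scaled to a fixed total per library, after TMM scaling over the 12 libraries. Differences are given as logFC (log2) with standard error, and a gene was called up- or downregulated at an FDR below 0.25, the threshold of the study. FDR is the Benjamini-Hochberg adjusted p of edgeR's quasi-likelihood test over 37598 genes. The fit of 4 group means is given first. Libraries of the same replicate number deviated together from their group means, so a fit in which KA and SH libraries of one number form a block is given beside it wherever it changes a call. When a library is left out of the blocked fit, the other library of its block no longer bears on the difference in that fraction. Without both low-input libraries this leaves replicate 3 alone to compare KA and SH in glia, so only the logFC is given there.

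SH neurons replicate 1 stood apart from the other SH neurons in peptide genes. It was the highest of the 3 SH neuron libraries for 7 of 10 members, and for 14 of 17 other neuropeptide precursor and granin genes, against 27.9% of 23488 genes with at least 1 CPM on average in SH neurons. Its CPM was 4.27 times the mean of replicates 2 and 3 for Npy, 3.65 times for Nts, 3.1 times for Tac1 and 2.82 times for Cck. For Chgb the ratio was 1.13, for Pdyn 0.819 and for Trh 0.441. Mitochondrial genes took 0.102% of its counts, against 0.0235 and 0.0127% in replicates 2 and 3. Replicate 1 had the highest share in the other groups too (KA neurons 0.0406%, SH glia 0.208%, KA glia 0.111%). Ttr, a choroid plexus gene, was at 59 CPM in SH neurons replicate 1 against 2.4 and 6.12 CPM. It also stood out in SH glia replicate 1, sorted from the same pool (149 against 5.31 and 8.79 CPM). Among SH glia, that library was the highest for Npy, Penk, Tac1 and Cck. It was the lowest for Trh, Gal, Pdyn, Scg2 and Chgb, and in the middle for Nts. The part of these in the results was not tested.

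**Figure D1:**
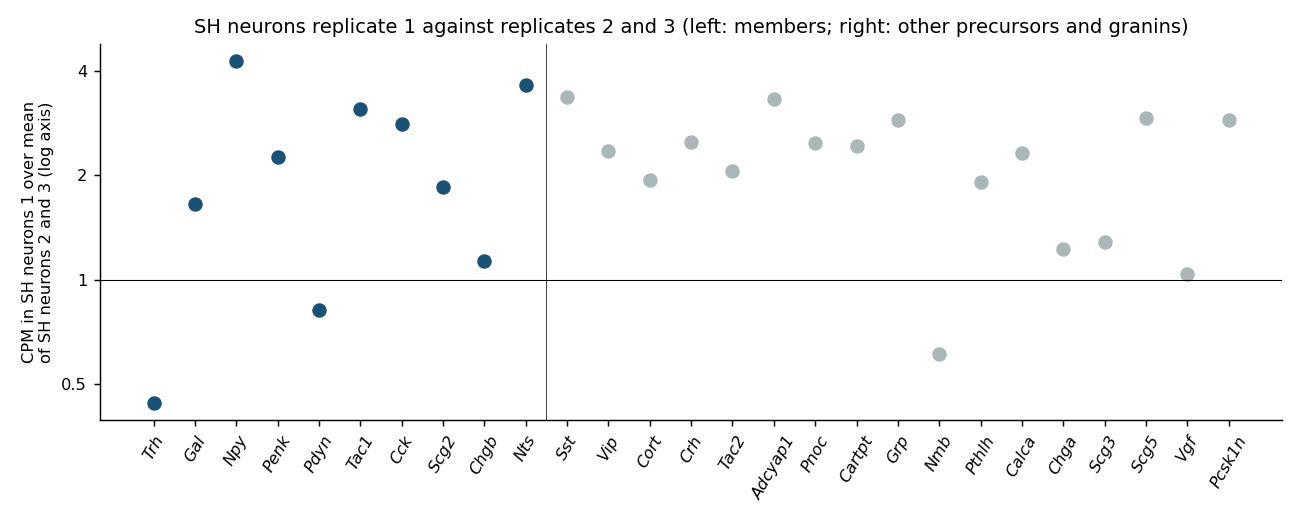
CPM in SH neurons replicate 1 divided by the mean CPM of SH neurons replicates 2 and 3 (vertical log axis, 1 means equal) for the 10 members (left, dark) and 17 other neuropeptide precursor and granin genes (right, grey). Most points lie above 1, with Npy highest among the members at 4.27 and Trh lowest at 0.441.

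The sort was checked against marker genes. Rbfox3, which encodes NeuN, had 161 to 274 CPM in the 6 libraries of neurons and 17.7 to 56.9 CPM in those of glia. Summed CPM of 15 neuronal markers ranged from 6057 to 9830 in SH neurons, 6411 to 8209 in KA neurons, 714 to 2144 in SH glia and 567 to 1924 in KA glia. Glial libraries thus held neuronal transcripts, and each of the 15 genes was above 0 in them. Within neurons, the summed CPM of 5 interneuron markers was 135 to 228 in SH and 137 to 163 in KA. The sum of 4 granule cell markers was 591 to 850 in SH and 432 to 543 in KA, without overlap. C1ql2 (201 to 339 and 113 to 135 CPM) and Dsp (15.6 to 27.1 and 8.79 to 14.6) did not overlap, while Dock10 (199 to 326 and 154 to 233) and Prox1 (82.5 to 219 and 120 to 188) did. The sum of 4 genes used as markers of the striatum, where Penk, Tac1 and Pdyn are abundant, was 25.3 to 53.8 in SH neurons and 67.1 to 88.2 in KA neurons. Most of it was Rgs9 (20.2 to 49.6 and 61.2 to 81.8 CPM). Drd2 was at 1.51 to 2.49 and 2.67 to 3.3 CPM, also without overlap, while Gpr6 (1.39 to 2.54 and 1.79 to 3.33) and Adora2a (0.816 to 2.32 and 1.08 to 1.42) overlapped. In glia the sum of 8 oligodendrocyte markers was 14307 to 29793 in SH and 7540 to 14090 in KA, and that of 5 markers of oligodendrocyte precursors 1154 to 1864 and 483 to 789. The part of these differences in the results that follow was not tested, and in sorted pools fewer nuclei of a type and less RNA per nucleus cannot be told apart.

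Trh and Gal were upregulated by KA in neurons and in glia. They made 2 of 10 members called in neurons, where 0.279% of all genes were upregulated and 0.0612% downregulated, and 2 of 10 in glia, where the shares were 0.442% and 0.306%. In this fit 0 members were downregulated (DESeq2 0), with Cck at an unadjusted p below 0.05 in both fractions. The median logFC of the 10 members was 1.21 in neurons against 0.00 for all genes, and 0.86 in glia against 0.14. As the members were chosen with earlier results of these data known, these shares and medians describe the list and do not test it. With the replicate block, Npy, Penk and Scg2 were also upregulated and Cck was downregulated in neurons, and Npy and Scg2 were also upregulated and Cck downregulated in glia. That is 5 up and 1 down in neurons (all genes 1.94% and 1.11%) and 4 up and 1 down in glia (3.47% and 4.17%). Pdyn, Tac1, Chgb and Nts passed in neither fit. DESeq2, run without a block, called Penk in neurons and Npy and Scg2 in glia beside Trh and Gal. Over all 37598 genes it called 456 in neurons and 1010 in glia.

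**Figure D2:**
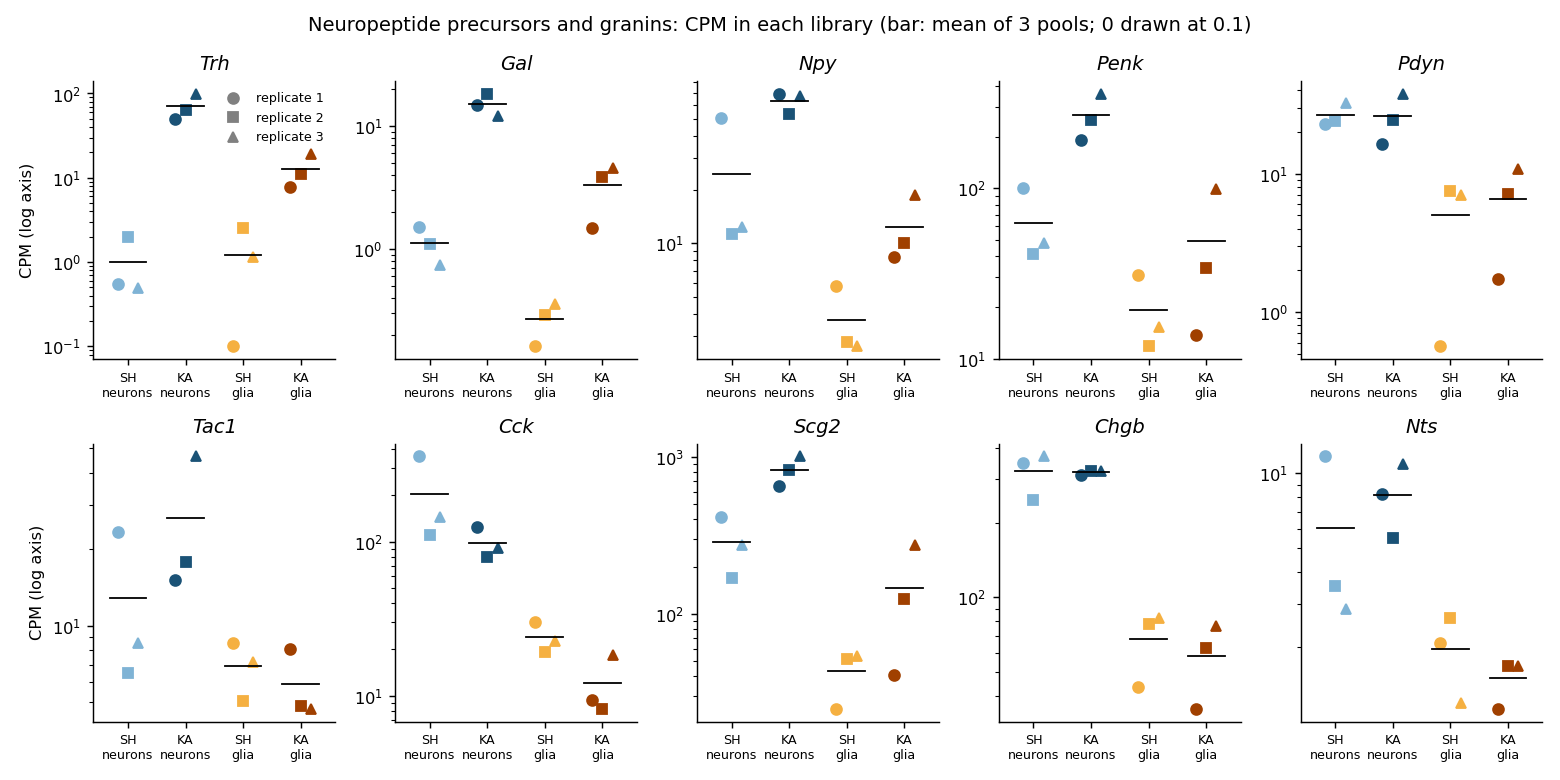
CPM of each member in the 12 libraries (vertical log axes, scaled per gene), with pools 1, 2 and 3 as circles, squares and triangles and the mean of 3 pools as a bar. All KA neuron libraries lie above all SH neuron libraries for Trh, Gal, Npy, Penk and Scg2, and the single 0 is Trh in SH glia replicate 1.

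Trh encodes the precursor of thyrotropin-releasing hormone, known from the hypothalamus and scarce in the resting hippocampus (ENSMUSG00000005892, GRCm38 chromosome 6, 92242061 to 92244650, minus strand). In SH neurons it had 0.545, 1.98 and 0.49 CPM, from 9 to 47 reads. In KA neurons it had 49.7, 64.1 and 99.5 CPM, from 582 to 2456 reads. The groups lay far apart, with a logFC of 6.12 (SE 0.85, FDR 0.0174), or 69.4-fold. No other member differed as much. Leaving out single libraries of neurons gave logFC from 5.78 to 7.10, with the call kept each time.

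In SH glia Trh had 0, 2.53 and 1.14 CPM. The library at 0, SH glia replicate 1, allows up to 0.241 CPM (3 reads, counting error only). In KA glia it had 7.82, 11.2 and 18.9 CPM, each above every SH glia library. The logFC was 3.31 (SE 0.76, FDR 0.124), or 9.93-fold, and 3.61 (FDR 0.00122) with the replicate block. Without the block the call was lost when SH glia replicate 3 (FDR 0.466), KA glia replicate 2 (0.272) or KA glia replicate 3 (0.288) was left out, and without both low-input libraries (logFC 2.87, FDR 0.398). It was also lost when glia were fitted on their own, with a logFC of 3.46 (FDR 0.625). LogFC ranged from 2.89 to 4.23 without single libraries of glia, the highest without SH glia replicate 2, the library with the most Trh in SH glia. With the block and without both low-input libraries logFC was 3.89, from replicate 3 alone.

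Gal encodes galanin, a peptide that dampens transmitter release (ENSMUSG00000024907, chromosome 19, 3409915 to 3414544, minus strand). SH neurons held 1.51, 1.1 and 0.735 CPM and KA neurons 14.9, 18.3 and 12 CPM. The highest SH library was below the lowest KA library by a wide margin, and logFC was 3.76 (SE 0.58, FDR 0.0274), or 13.5-fold. In SH glia Gal was near the limit of detection, with 0.161, 0.292 and 0.359 CPM from 2, 6 and 12 reads. KA glia held 1.48, 3.86 and 4.53 CPM, a logFC of 3.53 (SE 0.60, FDR 0.0293). The glial call was kept when any single library was left out, and lost without both low-input libraries (logFC 3.11, FDR 0.421). It was also lost when glia were fitted on their own, with a logFC of 3.70 (FDR 0.426). With the block and without both low-input libraries the logFC was 3.48, from replicate 3 alone. The study also treated neurons and glia separately, and its genes upregulated in glia included Gal but not Trh.

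Npy encodes neuropeptide Y, an inhibitory peptide of interneurons (ENSMUSG00000029819, chromosome 6, 49822710 to 49829507, plus strand). Its CPM was 50.3, 11.2 and 12.4 in SH neurons and 69.2, 53.2 and 67.4 in KA neurons. The groups did not overlap, but SH replicate 1 came close to the lowest KA library. LogFC was 1.36 (SE 0.52, FDR 1), and with the replicate block 1.73 (SE 0.40, FDR 0.0372). Without SH neurons replicate 1 these became 2.42 (FDR 0.291) and 2.35 (FDR 0.000107). In glia Npy had 5.71, 2.77 and 2.63 CPM in SH and 8.34, 9.98 and 18.6 CPM in KA, again without overlap. LogFC was 1.76 (SE 0.54, FDR 0.408), and 1.77 (FDR 0.0271) with the block.

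Penk encodes proenkephalin, the source of the enkephalins (ENSMUSG00000045573, chromosome 4, 4133531 to 4138819, minus strand). Of its exon bases, 14.3% are shared with A830012C17Rik on the opposite strand, and reads there were left out by the counting. SH neurons held 100, 41 and 47.4 CPM and KA neurons 193, 253 and 359 CPM, without overlap. LogFC was 2.09 (SE 0.60, FDR 0.469), and 2.18 (SE 0.49, FDR 0.0297) with the block, a 4.53-fold difference. Without SH neurons replicate 1 the blocked logFC was 2.77 (FDR 1.9e-05). In glia the groups overlapped, at 30.8, 11.8 and 15.3 CPM in SH and 13.8, 34.1 and 98.7 CPM in KA, and neither fit called the gene (logFC 1.35, FDR 0.963, and 1.11, FDR 0.376, with the block). With the block it was called in glia without SH neurons replicate 1 (logFC 1.10, FDR 0.111). That library bears on glia only through the scaling and the shared spread. Without both low-input libraries the blocked logFC in glia was 2.52, from replicate 3 alone.

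Pdyn encodes prodynorphin, the other opioid precursor of granule cells (ENSMUSG00000027400, chromosome 2, 129686565 to 129699844, minus strand). It had 22.9, 23.9 and 32.1 CPM in SH neurons and 16.4, 24.3 and 37.8 CPM in KA neurons. The KA libraries enclosed the SH libraries, and logFC was -0.01 (SE 0.65, FDR 1). In glia it had 0.563, 7.45 and 6.99 CPM in SH and 1.74, 7.11 and 10.7 CPM in KA (logFC 0.37, SE 0.66, FDR 1). Replicate 1 was the lowest library in each of the 4 groups.

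Tac1 encodes the precursor of substance P and neurokinin A (ENSMUSG00000061762, chromosome 6, 7554879 to 7565834, plus strand). SH neurons held 23.4, 6.53 and 8.57 CPM and KA neurons 15.1, 17.9 and 46.5 CPM, so that SH replicate 1 lay above 2 of the 3 KA libraries. Its logFC was 1.05 (SE 0.51, FDR 1), and 1.12 (FDR 0.432) with the block. With the block and without SH neurons replicate 1 it was called, at 1.95 (FDR 0.00454). In glia it ranged from 5.06 to 8.52 CPM in SH and from 4.69 to 8.08 CPM in KA.

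Cck encodes cholecystokinin (ENSMUSG00000032532, chromosome 9, 121489824 to 121495694, minus strand). It had 359, 111 and 144 CPM in SH neurons and 124, 79.7 and 91.7 CPM in KA neurons, with KA replicate 1 above SH replicate 2. LogFC was -1.06 (SE 0.45, FDR 1), and -0.88 (SE 0.28, FDR 0.189) with the block. That call was lost without SH neurons replicate 1, at a blocked logFC of -0.56 (FDR 1). Leaving this library out also took KA neurons replicate 1 out of the blocked difference. Which library of the replicate 1 pair the call rested on was thus not tested. In glia all KA libraries (9.39, 8.18 and 18.5 CPM) were below all SH libraries (29.9, 19.2 and 22.7 CPM). LogFC there was -0.99 (SE 0.45, FDR 1), and -1.05 (SE 0.29, FDR 0.0622) with the block. Without both low-input libraries the blocked logFC was -0.46, from replicate 3 alone.

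Nts encodes the precursor of neurotensin (ENSMUSG00000019890, chromosome 10, 102481756 to 102490486, minus strand). It was a low gene in all groups, with 11.7, 3.54 and 2.86 CPM in SH neurons and 8.29, 5.52 and 10.9 CPM in KA neurons (logFC 0.45, SE 0.59, FDR 1). SH replicate 1 lay above every KA library, and without it logFC was 1.36 (FDR 1). In glia it ranged from 1.2 to 2.63 CPM in SH and from 1.13 to 1.69 CPM in KA (logFC -0.38, SE 0.60, FDR 1).

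The members include 2 granins. Scg2 encodes secretogranin II, the source of secretoneurin (ENSMUSG00000050711, chromosome 1, 79434669 to 79440120, minus strand). It had 412, 169 and 275 CPM in SH neurons and 648, 818 and 1004 CPM in KA neurons, without overlap. LogFC was 1.53 (SE 0.57, FDR 1), and 1.60 (SE 0.32, FDR 0.0119) with the block, or 3.04-fold. In glia KA replicate 1 (40.9 CPM) lay within the SH range of 24.8 to 54.3 CPM, while KA replicates 2 and 3 (125 and 275 CPM) lay above it. The glial logFC was 1.75 (SE 0.58, FDR 0.519), and 1.45 (SE 0.32, FDR 0.0153) with the block. Without both low-input libraries the blocked value was 2.18, from replicate 3 alone.

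Chgb encodes chromogranin B (ENSMUSG00000027350, chromosome 2, 132781278 to 132795079, plus strand). It had 348, 248 and 370 CPM in SH neurons and 311, 324 and 322 CPM in KA neurons. The KA libraries were alike and lay inside the SH range, with a logFC of -0.01 (SE 0.38, FDR 1). In glia it had 43.7, 78.3 and 82.7 CPM in SH and 35.5, 62.3 and 76.9 CPM in KA (logFC -0.23, SE 0.38, FDR 1). Neither granin was called in the fit of group means. With the block Scg2 was called and Chgb was not, and the difference between the 2 genes was not tested.

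**Figure D3:**
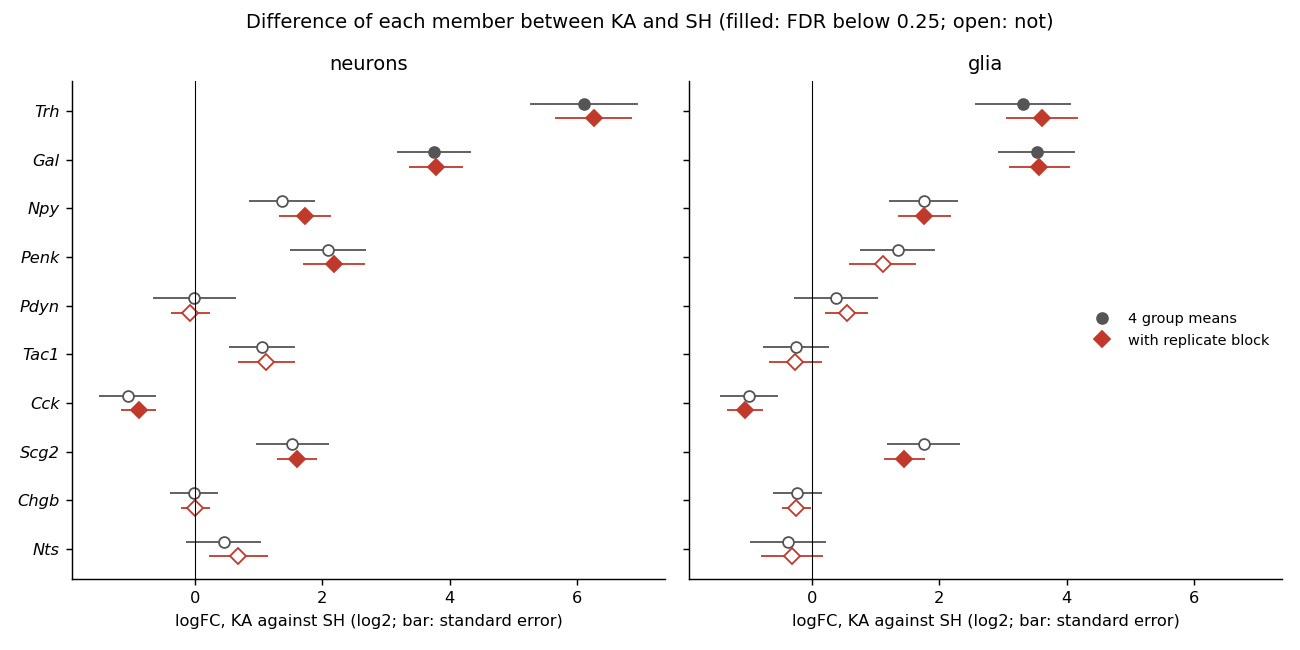
LogFC of KA against SH (horizontal axis, log2) for each member in neurons and glia, with bars of 1 standard error, for the fit of 4 group means (grey circles) and with the replicate block (red diamonds). Filled symbols are below an FDR of 0.25: Trh and Gal in both fits, the others only with the block.

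Counted by separation alone, all KA libraries lay above all SH libraries for 5 of 10 members in neurons (Trh, Gal, Npy, Penk and Scg2) and 3 of 10 in glia (Trh, Gal and Npy). Over all genes tested this held for 5.27% in neurons and 3.61% in glia. All KA libraries lay below all SH libraries for 0 of 10 members in neurons (all genes 4.45%) and for Cck in glia (all genes 3%).

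Whether KA acted differently in neurons and glia was tested as the difference of the 2 logFC. In the fit of group means by edgeR 0 of 37598 genes passed (0%), with 502 at an unadjusted p below 0.05, and DESeq2 called 39 genes, no member among them. The members' differences ran from -0.39 to 2.81, the highest being Trh (SE 1.02, FDR 1), the 1 member at an unadjusted p below 0.05. Neurons and glia came from the same pools, and with the pool as a block Trh passed: its difference was 2.79 (SE 0.58, FDR 0.12), or 6.91-fold more in neurons, where 0.314% of all genes passed in this direction. This call was lost without SH pool 3 (2.27, FDR 0.539) or KA pool 3 (2.84, FDR 0.304), was kept without each of the other pools, and stood at 3.27 (FDR 0.00868) without both pools that held a low-input library. In the fit of group means the difference was 1.89 (FDR 1) without SH glia replicate 2 and 3.79 (FDR 1) without SH neurons replicate 2. With all pools, no other member passed, with Penk at 1.13 (FDR 0.719; 1.63, FDR 0.166, without KA pool 3), Tac1 at 1.36 (FDR 0.925) and Gal at 0.41 (FDR 1).

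Most members were enriched in neurons. In SH, 8 of 10 were higher in neurons than in glia (all genes 12.3%), with logFC from 1.61 for Nts to 3.10 for Cck (SE 0.48, FDR 0.000558). Exceptions were Trh (-0.32, FDR 0.931) and Tac1 (0.89, FDR 0.408), both with overlapping libraries. In KA, 10 of 10 were higher in neurons (all genes 11.2%), with logFC from 1.99 for Pdyn to 3.03 for Cck, and Trh at 2.49 (SE 0.71, FDR 0.032). The pool block gave the same 8 and 10.

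Because glia held neuronal transcripts, the CPM in glia was also taken as a percentage of that in neurons of the same pool. Its median over 15 neuronal markers was 17.4 to 34.2% in the 3 SH pools and 13.6 to 26.5% in the 3 KA pools. In KA pools Trh stood at 15.7 to 19%, Gal at 9.94 to 37.7%, Npy at 12.1 to 27.6% and Scg2 at 6.32 to 27.4%. Trh exceeded the marker median in 1 of 3 KA pools, Gal in 2 and Npy and Scg2 in 1. Cck exceeded it in 0 of 3 SH and 0 of 3 KA pools (7.59 to 20.2% in KA). In SH pools Tac1 (36.4 to 84%) and Nts (17.9 to 74.2%) exceeded it in 3 of 3, and Trh reached 128 and 232% in replicates 2 and 3, at under 3 CPM in each library. Which nuclei of the NeuN- gate carried these transcripts was not tested.

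**Figure D4:**
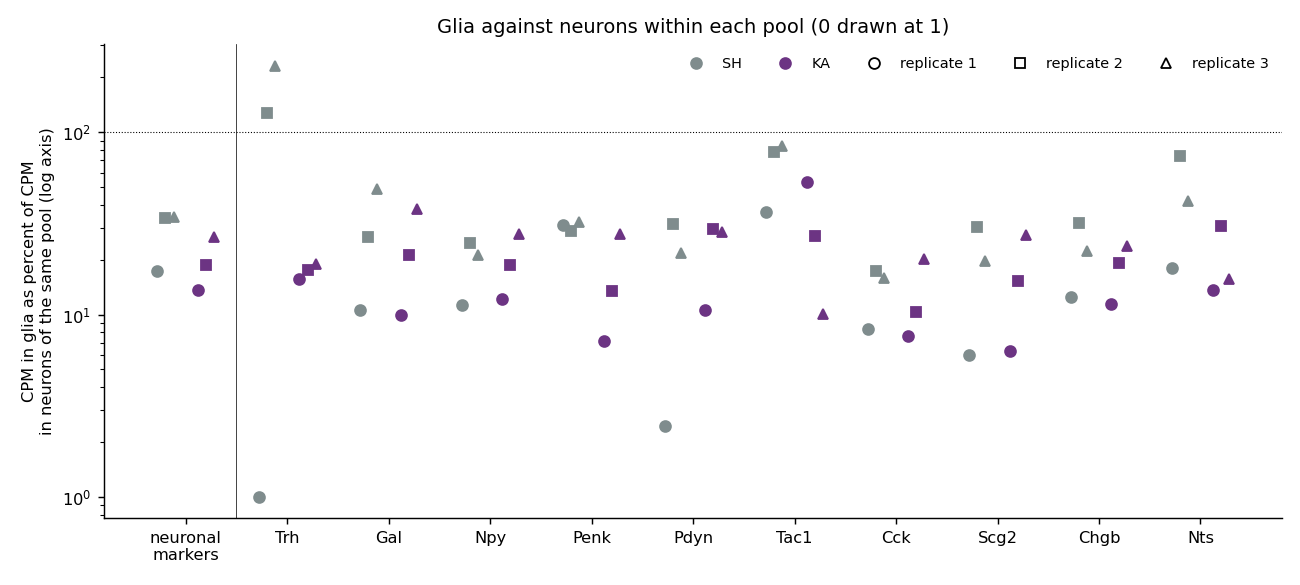
CPM in glia as a percentage of CPM in neurons of the same pool (vertical log axis; dotted line 100%) for the median of 15 neuronal markers (far left) and each member, SH in grey and KA in purple. KA values of Trh lie at 15.7 to 19%, within the 13.6 to 26.5% of the neuronal markers, and the SH value of 0 for Trh is drawn at 1.

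Levels between genes were compared as CPM per kilobase of exon. In SH neurons Cck (157 ± 103, SD, n = 3), Chgb (118 ± 23.8) and Scg2 (114 ± 48.4) were highest and overlapped each other. Npy (43.5 ± 39.3) and Penk (38.4 ± 19.8) followed, and Penk lay above Pdyn (9.12 ± 1.75) without overlap. Nts (4.83 ± 3.93) and Tac1 (3.78 ± 2.71) overlapped, and Gal (1.41 ± 0.494) and Trh (0.726 ± 0.611) were lowest. Part of this order rested on SH neurons replicate 1. Without it the means were 113 for Chgb, 97.5 for Cck and 88.4 for Scg2, again with overlap, and Npy (20.8) lay below Penk (27.1). In KA neurons Scg2 came first (327 ± 70.9) and no longer overlapped the next gene, Penk (164 ± 51.4). Chgb (116 ± 2.69) and Npy (112 ± 15.4) overlapped, as did Cck (75.4 ± 17.4) and Trh (51.4 ± 18.5). Trh was in the 10th place in SH and in the 6th in KA, and Gal (19.1 ± 3.95) now stood above Pdyn (9.06 ± 3.74) without overlap.

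In glia levels on this scale were lower than in neurons, except for Trh in SH (0.883 ± 0.916 CPM per kilobase in glia, SD, n = 3). Chgb was first in SH glia (24.9 ± 7.79 CPM per kilobase, SD, n = 3) and Gal last (0.343 ± 0.128). Scg2 was first in KA glia (58.4 ± 47.1), with a spread that overlapped Penk (29.9 ± 27.1), and Nts was last (1.2 ± 0.257).

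Across the 12 libraries, members varied together to unequal degree. Log2 CPM correlated most between Npy and Penk (Pearson r = 0.94), Penk and Scg2 (0.923), Npy and Scg2 (0.906), Cck and Chgb (0.906) and Trh and Gal (0.902), and least between Trh and Cck (-0.0627). These are descriptions over n = 12 libraries that share the sort and the treatment. Among 25227 genes with at least 1 CPM on average, the 3 most like Trh were Medag (0.963), Tll1 (0.947) and Cd300lb (0.933). Those most like Gal were Nptx2, Inhba and Ptgs2 (0.939 to 0.957), and those most like Npy were Far2os1 (0.966), Bdnf (0.958) and Penk. Penk was most like C2cd4b, Ly6g6e and Acvr1c (0.945 to 0.974) and Scg2 most like Sh2d5, Zfp804a and 4833422C13Rik (0.979 to 0.985). Chgb was most like St8sia3, Slc4a10 and Fbxw7 (0.992 to 0.995), Cck most like Cep19, Stmn3 and Tusc3 (0.986 to 0.99), and Pdyn most like Gm36937, Col6a1 and Gm26658 (0.984 to 0.987). Tac1 was most like Nipal2, 1700019D03Rik and D330050G23Rik (0.898 to 0.937), and Nts most like Kcnmb4, 5033430I15Rik and Ptchd1 (0.93 to 0.939).

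Of 17 other precursor and granin genes, 1 was upregulated in neurons (all genes 0.279%) and 2 in glia (0.442%). In both fractions 0 were downregulated (all genes 0.0612% in neurons and 0.306% in glia). DESeq2, run without a block, called 2 higher in neurons (Chga and Vgf). In glia it called 1 higher (Vgf) and 2 lower (Scg3 and Scg5). The median logFC of the 17 genes was -0.09 in neurons and -0.03 in glia, against 0.00 and 0.14 for all genes. Vgf, which encodes a granin-like precursor of several peptides, had 162, 124 and 187 CPM in SH neurons and 768, 619 and 1036 CPM in KA neurons (logFC 2.36, SE 0.47, FDR 0.0929). In glia it had 17.8, 30.6 and 33.3 CPM in SH and 139, 116 and 332 CPM in KA (logFC 2.84, SE 0.48, FDR 0.0284). Both groups of KA libraries lay well above SH. The call in neurons was lost without SH neurons replicate 1 (FDR 0.593), 2 (0.399) or 3 (0.307), KA neurons replicate 3 (0.528) or KA glia replicate 2 (0.252). LogFC ranged from 2.14 to 2.52 without single libraries of neurons. The call in glia was lost without both low-input libraries (logFC 2.80, FDR 0.344). With the block the FDR was 6e-05 and 3.98e-05.

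Calca, the gene of calcitonin and of calcitonin gene-related peptide, was upregulated in glia. It had 0.161, 0.487 and 0.0896 CPM in SH glia and 5.56, 3.25 and 9.02 CPM in KA glia (logFC 4.58, SE 0.80, FDR 0.0324). In neurons it had 3.21, 1.01 and 1.76 CPM in SH and 3.93, 3.19 and 4.74 CPM in KA, which overlapped. The difference of its logFC between neurons and glia was -3.58 (FDR 1), and -3.49 with the pool block (FDR 0.291), and DESeq2 called it. With the block, and outside the rule that names genes, Chga was upregulated in neurons (logFC 1.54, FDR 0.00782). Scg5 and Pcsk1n were downregulated in both fractions, and Scg3 in glia (logFC -0.89, FDR 0.0495). Scg5 had 314, 90 and 124 CPM in SH neurons, with replicate 1 far above the others. Its call in neurons (logFC -0.95, FDR 0.0927) and that of Pcsk1n (-0.81, FDR 0.17) were lost without that library (-0.62, FDR 0.895, and -0.54, FDR 1). In glia, without both low-input libraries, the blocked logFC was -1.08 for Scg5, -0.86 for Pcsk1n and -0.91 for Scg3, from replicate 3 alone.

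Of 10 genes of precursor processing and dense-core vesicles, 0 passed in neurons and 0 in glia, with median logFC of 0.17 and 0.09. At an unadjusted p below 0.05 there were 2 in neurons and 3 in glia, and DESeq2 called 2 (Cadps2 and Pcsk1) and 1 (Pcsk2). With the block 3 were up and 1 down in neurons (all genes 1.94% and 1.11%), and 2 up and 2 down in glia (3.47% and 4.17%). The convertase gene Pcsk1 had 32.8, 23.9 and 35.8 CPM in SH neurons and 76, 61.4 and 118 CPM in KA neurons, without overlap. Its blocked logFC was 1.43 (FDR 0.0183) in neurons and 1.08 (FDR 0.0931) in glia. Also called with the block in neurons were Furin (1.09, FDR 0.0582), Ptprn (0.86, FDR 0.158) and, downwards, Cadps2 (-1.11, FDR 0.0358). In glia they were Syt4 (0.96, FDR 0.0727) and, downwards, Pcsk2 (-0.92, FDR 0.0496) and Cpe (-0.76, FDR 0.104). Without SH neurons replicate 1 the call of Furin was lost (0.87, FDR 0.344). Without both low-input libraries the blocked logFC in glia was -0.58 for Pcsk2 and -0.71 for Cpe, from replicate 3 alone. These genes were named after their values were seen.

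Of 19 receptor genes for the member peptides, 0 passed in neurons (all genes 0.279% up and 0.0612% down). In glia 1 was downregulated (all genes 0.306%). In neurons 1 gene, Npy1r, had an unadjusted p below 0.05 and DESeq2 called 0. The median logFC was -0.37 and 0.29. Ntsr2, a neurotensin receptor known from astrocytes, had 548, 215 and 510 CPM in SH glia and 140, 69.6 and 84.3 CPM in KA glia, without overlap (logFC -2.12, SE 0.47, FDR 0.11). The call was lost without SH glia replicate 1 (FDR 0.364) or 3 (0.378), KA glia replicate 2 (0.609) or 3 (0.264), and both low-input libraries (logFC -1.96, FDR 1), and when glia were fitted on their own (-1.93, FDR 0.405). LogFC ranged from -2.51 to -1.77 without single libraries of glia. With the block the FDR was 0.00034. The study, which also treated neurons and glia separately, listed Ntsr2 as downregulated in glia. Summed CPM of 10 astrocyte markers in glia was 2143 to 3028 in SH and 1294 to 2405 in KA, and the part of this in the result was not tested. With the block, and named after their values were seen, Tacr1 (1.36, FDR 0.195) was up and Npy1r (-0.97, FDR 0.113) down in neurons, and both calls were lost without SH neurons replicate 1 (1.06, FDR 0.838, and -0.86, FDR 0.583). In glia Trhr2 (2.06, FDR 0.125) was up, from under 2 CPM, and Sort1 (-1.28, FDR 0.0111) down. DESeq2, run without a block, called 2 receptor genes lower in glia, Ntsr2 and Sort1.

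Of 8 genes of peptide-degrading peptidases, among them Trhde, whose enzyme cleaves thyrotropin-releasing hormone, 0 passed in neurons and 0 in glia in either fit. At an unadjusted p below 0.05 there were 0 in both, and DESeq2 called 0. Median logFC of the group was 0.11 in neurons and 0.17 in glia.

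**Figure D5:**
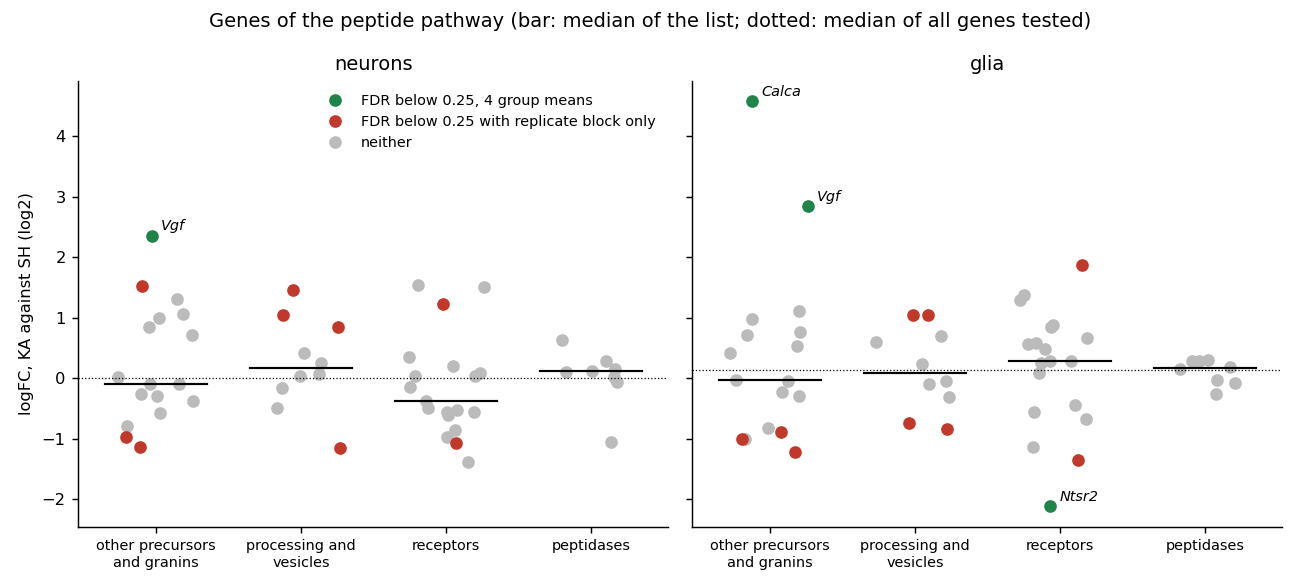
LogFC of KA against SH (vertical axis, log2, fit of 4 group means) for the genes of 4 groups around the members, in neurons and glia. Green points are below an FDR of 0.25 (Vgf in neurons; Vgf, Calca and Ntsr2 in glia), red points with the replicate block only, bars are the group's median, and the dotted line is the median of all genes tested.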

How the data were processed

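Only the mRNAseq libraries were used; the 12 RRBS samples were not analysed here. The authors trimmed reads with Trim Galore 0.4.3, aligned them to mm10 with Rsubread and counted uniquely mapped reads per gene with featureCounts (default parameters) and GENCODE M16, and deposited whole-number counts without normalization. Default counting ignores strand and drops reads shared by overlapping genes. Reads were 75 bp single or 150 bp paired; which library had which is not given in the sources used here. All count columns were mapped to samples.

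Symbols were taken from GENCODE M21 (105 of 53379 IDs without one were left out). filterByExpr (defaults: minimum count 10, total 15), TMM factors and glmQLFit with legacy=TRUE on 4 group means were run in edgeR 4.0.16 (limma 3.58.1, R 4.3.3), with Benjamini-Hochberg adjustment and a threshold of 0.25. A standard error is the absolute logFC divided by the root of the F statistic. Log2 CPM for correlations used a prior count of 2. Scripts were tested on simulated data. Figures were drawn with matplotlib 3.10.9.

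Pairing by replicate number was checked across genes, by correlating how far same-numbered KA and SH libraries lay from the mean of their group. In neurons r was 0.399, 0.264 and 0.551, in glia 0.457, 0.543 and 0.764. For neurons and glia of 1 pool, which share animals, r was 0.293 to 0.649. The study's methods do not describe KA and SH pools as paired. The 3 libraries of a group are pools of different mice. The fit of group means took the 12 libraries as independent, though neurons and glia of 1 pool share animals. Its p values rest on the spread between libraries within the groups. With a block, p values rest on the spread left once the differences between blocks are taken out. In the replicate block without both low-input libraries no such spread was left in glia, so no FDR is given for glia there. CPM and floors cover counting error only.

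Alternatives were separate fits of neurons and glia, blocks, other scalings, DESeq2 1.42.0, edgeR without legacy, other filters, all IDs, autosomes, FDR 0.05, and libraries left out. The blocked fits with libraries or pools left out were added after seeing the data. The members and the gene lists were chosen with earlier results of these data known. Named are all 10 members, genes of the 4 lists that passed in either fraction (at most 6 a list) and the 3 genes most correlated with each member; exceptions are marked.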

Additional observations from a re-analysis of the deposited data

Results flagged for a closer look

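Trh was flagged because its response to KA differed between neurons and glia: with the pool as a block the logFC in neurons exceeded that in glia by 2.79 (SE 0.58, FDR 0.12, edgeR's quasi-likelihood test). Each of the 3 KA pools had more Trh than each of the 3 SH pools in both fractions. The call was lost without SH pool 3 (2.27, FDR 0.539) or KA pool 3 (2.84, FDR 0.304). Without the block the difference was 2.81 at an FDR of 1, and no gene passed. Groups of 3 libraries were not searched for outlying values.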

How the results depend on the processing

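Of the 10 members, 2 were called in neurons (Trh and Gal) and 2 in glia. In neurons separate fits gave 4 and the replicate block 6. A minimum of 10 counts in every library, which Trh, Gal and Pdyn did not meet, gave 1 in neurons and 2 in glia. These were thus members other than Trh and Gal. In glia separate fits gave 0, the replicate block 5, DESeq2 4, an FDR below 0.05 1, and leaving out both low-input libraries 0. With the block the counts without SH neurons replicate 1 were 6 in neurons and 6 in glia. Without both low-input libraries the blocked count was 6 in neurons. Leaving out single libraries gave 1 to 3 in glia and 2 to 3 in neurons. For the difference between fractions the pool block gave 1 in place of 0, and also 1 without any single pool except SH pool 3 (0), and without both pools with a low-input library. Without KA pool 3 the 1 was Penk, otherwise Trh. The calls of neurons against glia stayed within 1.5 times of 8 in SH and 10 in KA under every alternative run, and the block changed no call of a member other than those given with the results.

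Values near 0 changed sign. Pdyn in neurons was 0.0118 with edgeR without legacy, 0.13 with the block and without SH neurons replicate 1, and -0.37 to 0.24 without single libraries. Pdyn in glia was -0.22 without both low-input libraries and -0.18 to 0.74 without single libraries. Chgb in neurons was 0.0073 with the block, 0.0488 with upper-quartile factors, 0.0479 with a minimum of 10 counts, 0.0966 with the block and without SH neurons replicate 1, and -0.17 to 0.10 without single libraries. Tac1 in glia was -0.58 to 0.0582 without single libraries, and Nts in glia 0.34 with the block and without both low-input libraries. The cause was not tested. DESeq2 gave no adjusted p for Calca in glia. Low reads limit Gal and Trh in SH glia, with 0 to 52 reads.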
